A study of Mus musculus and Homo sapiens with 8 samples.

Results

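The comparison set 1 RNA-seq library of MDA-MB-231 cells kept for 3 days in 40 µM olaparib against 1 library of the same line kept for 3 days in DMSO, the solvent control. They are 2 of the 8 libraries of the series, chosen by their treatment label, and all 25611 gene symbols of the human table were taken. Per the labels, 500000 cells were plated on a 10 cm dish and grown for 24 h before treatment, and 1 µg of total RNA entered a strand-specific library kit. With 1 library per condition there is no replicate check, so no test was made and every statement below compares these 2 libraries.

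Olaparib blocks PARP1 and PARP2, enzymes that bind DNA breaks and mark nearby proteins with chains of ADP-ribose, and it also holds PARP1 on the DNA. Cells then lean on homologous recombination to mend replication forks that run into these lesions, which is why tumours without BRCA1 or BRCA2 are sensitive to the drug. DNA that leaks into the cytosol after such damage can be sensed by CGAS and STING1, which switch on interferon and NF-kB target genes. MDA-MB-231 is a triple-negative breast cancer line of mesenchymal character.

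The libraries held 7472981 (DMSO) and 6878212 (olaparib) counts over 20497 and 20252 genes. Mitochondrial transcripts made up 5.61% and 4.75% of the counts, and the 100 most abundant genes 18.7% and 20.5%. Ratios are log2 of olaparib over DMSO after TMM scaling with 1 count added. A gene was ranked if its mean scaled count was at least 50, and it passed the size rule if its log2 ratio was at least 1 in absolute value, a 2-fold difference. A gene under 50 scaled counts in 1 library was thus ranked only through its counts in the other, which holds for higher and for lower genes. Intervals are exact 95% intervals of the ratio and, because reads without molecular identifiers are not independent molecules, cover counting error only. In RNA from a whole dish, fewer cells of a kind and less RNA per cell cannot be told apart.

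The markers of the line were found in both libraries. Counts of VIM were 8387 in DMSO and 6099 in olaparib, those of CD44 2892 and 2419, and those of AXL 8427 and 4492, whereas SPARC, also listed as a mesenchymal marker, had 0 in both. Of the 7 ranked mesenchymal markers, 1 was higher by the size rule (LGALS1, ratio 1.22) and 2 were lower, beside 7.82% and 21.2% of all ranked genes. The other 6 had ratios below 0. ESR1, the oestrogen receptor, had 0 counts in both libraries, which allows up to 0.401 and 0.436 counts per 1000000 unscaled counts. Elsewhere CPM stands for counts per 1000000 TMM-scaled counts. Of the 8 listed luminal or epithelial markers, only KRT19 (ratio 0.503) and ERBB2 (0.495) were ranked. PTPRC, the pan-leukocyte marker, had 6 and 1 counts, ITGAM and the endothelial VWF had 0 in both, and no immune marker was ranked. ESAM, an endothelial marker, had 2146 and 2088 counts.

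Of 10280 ranked genes, 804 (7.82%) were higher and 2176 (21.2%) were lower in the olaparib library by the size rule, and 7300 were neither. The ratios had a median of -0.02, quartiles of -0.86 and 0.55, and a range of -3.56 to 4.41. The counting interval included 0 for 1889 ranked genes (18.4%), and it lay wholly beyond the size rule for 349 higher and 1405 lower genes. Of the calls, 27.0% were higher, against 14.2% on the deposited scale, which moves the median gene by -0.18. Each ratio is thus a position against the middle of all genes.

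The ratio followed the base composition and length of the transcript. GC content and length were read from the mouse transcript of the same gene, as a stand-in, for 9437 of the ranked genes (91.8%), 366 of them matched through a synonym. Spearman's rho across genes was 0.64 with GC content and -0.50 with length; these are descriptions across genes, which are not independent replicates, and both properties were correlated with each other (rho -0.26). In the lowest of 5 GC bins the median ratio was -0.99 and 49.6% of genes were lower by the size rule, and in the highest bin the median was 0.62 and 0.318% were lower. From the shortest to the longest of 5 length bins the median went from 0.55 to -0.98. Genes that were both long and low in GC had a median of -1.48, and short genes high in GC one of 0.76. The ratio also rose with the level of the gene: rho with the mean count was 0.20. From the lowest to the highest of 5 bins of mean count the median went from -0.41 to 0.28.

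**Figure D1:**
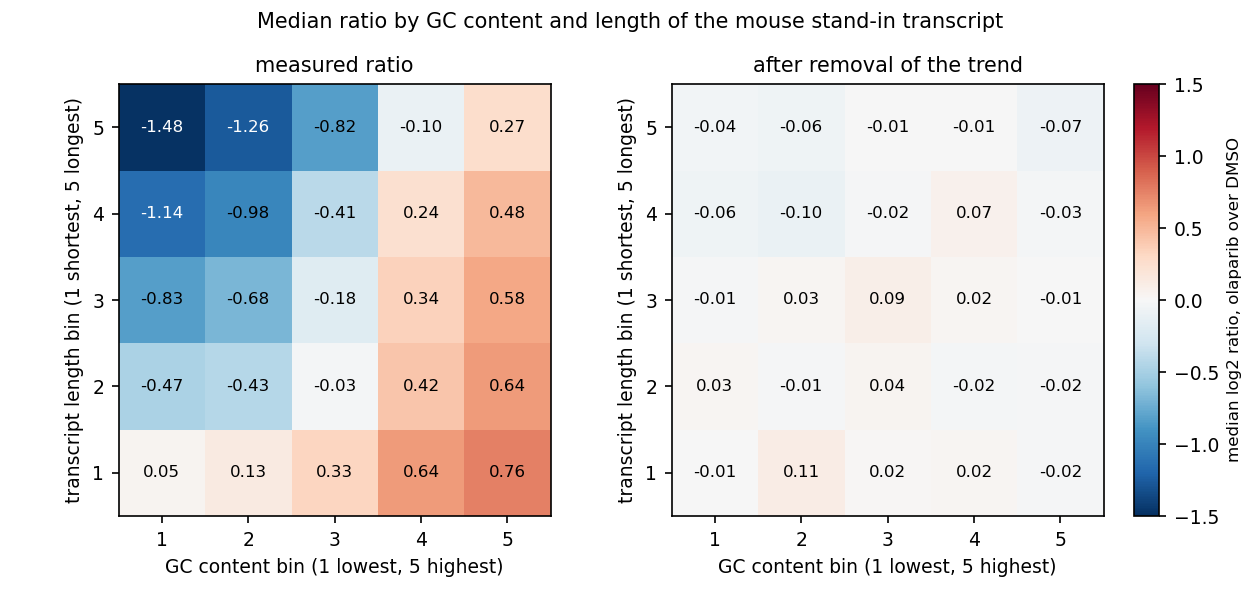
Median log2 ratio (olaparib over DMSO, colour and printed value) of ranked genes in 5 bins of GC content (x axis) by 5 bins of transcript length (y axis) of the mouse stand-in, as measured (left) and after removal of a smooth trend (right). The measured medians run from -1.48 for long transcripts low in GC to 0.76 for short transcripts high in GC, and the bins of the right panel lie between -0.10 and 0.11.

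A smooth surface over GC content and length took 55.5% of the variance of the ratios and brought their SD from 0.939 to 0.627. After its removal 493 genes (5.22%) were at least 1 above and 500 genes (5.30%) at least 1 below the trend. Of the genes with these values that were called before, 182 of the higher ones (26.2%) and 415 of the lower ones (20.1%) were still past the size rule in the same direction. Calls relative to the trend remained more frequent at low counts. From the lowest to the highest of 5 bins of mean count the share above went from 7.36% to 4.08%. The share below went from 9.21% to 2.22%. With 1 library per condition, a difference between the preparations of the RNA or libraries and an effect of olaparib on long transcripts or those low in GC cannot be told apart. Lists of genes below are therefore given as measured and relative to genes of like GC content and length, except where too few members had a stand-in, and the second value of a single gene carries the error of its stand-in transcript.

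**Figure D2:**
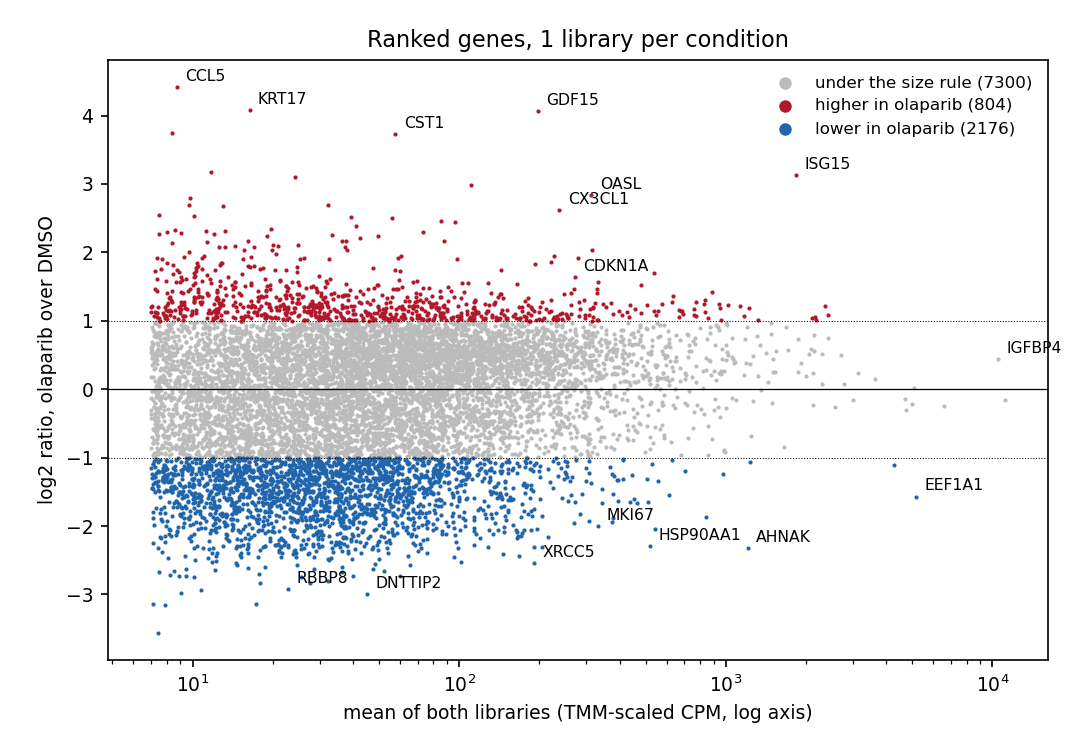
Log2 ratio, olaparib over DMSO (y axis), against the mean TMM-scaled CPM of both libraries (x axis, log scale) for the 10280 ranked genes, with the size rule as dotted lines and a few genes named. There are 2176 lower against 804 higher genes. Among genes with a mouse stand-in, 30.1% were lower in the lowest of 5 bins of mean count and 10.0% in the highest, and 9.05% and 8.10% were higher.

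The genes with the highest lower bounds had several roles. GDF15, a stress-induced cytokine of the TGF-beta family, went from 168 to 2502 counts (log2 ratio 4.07, interval 3.85 to 4.31). CCL5, a chemokine for T cells, went from 5 to 113 counts (4.41, 3.41 to 6.33), and KRT17, a basal keratin, from 13 to 209 (4.08, 3.38 to 5.12). The 12 genes with the highest lower bounds also held CST1, a cysteine protease inhibitor, with 61 and 723 counts, HES4 with 189 and 1325, CH25H, the interferon-induced cholesterol 25-hydroxylase, with 38 and 294, and C1QL1 with 17 and 143. CCL5, KRT17, CH25H and C1QL1 had fewer than 50 counts in DMSO, so they were ranked only through their olaparib counts. After removal of the trend GDF15 was at 3.29, CCL5 at 3.45 and KRT17 at 3.34.

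Interferon-stimulated genes were more often higher than lower in the olaparib library. Of 50 ranked members, 18 were higher and 5 lower by the size rule, beside 7.82% and 21.2% of all ranked genes, and their median ratio was 0.67. Relative to GC content and length, 19 of 46 were higher and 0 lower, beside 5.22% and 5.30% of all genes, with a median of 0.75. The list's trend value had a median of -0.28, beside -0.12 for all ranked genes. By role this median was 0.16 for the ubiquitin-like pathway, -0.21 for antiviral effectors and -0.64 for sensors and signalling.

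The 30 ranked antiviral effectors had a median of 0.82, with 13 higher and 3 lower, beside 7.82% and 21.2% of all ranked genes. Of the 30, 11 had a ratio below 0. Against genes of like composition and length 12 of 26 were higher and 0 lower, beside 5.22% and 5.30% of all genes. Their median was 0.88. OASL, an OAS-like protein that boosts RNA sensing, went from 585 to 3699 counts (2.84, 2.72 to 2.97). OAS1, which makes the activator of RNase L, went from 81 to 270 counts (1.90, 1.55 to 2.29), and IFI27 from 104 to 413 (2.16, 1.86 to 2.50). MX1, the GTPase that blocks influenza viruses, had 107 and 206 counts and a ratio of 1.12 (0.78 to 1.48). The IFIT genes, which bind foreign RNA ends, were split: IFIT1 went from 3292 to 6060 counts (1.06) and IFIT3 from 2263 to 1718 (-0.22). The lowest effector was SAMD9, with 407 and 144 counts (-1.31) and no stand-in, and GBP3, a guanylate-binding protein, had 321 and 121 (-1.22, and -0.63 relative to the trend). In the ubiquitin-like pathway ISG15 itself went from 2869 to 22229 counts (3.13, 3.08 to 3.19) and lay 2.39 above the trend. USP18, which removes ISG15 from proteins, went from 33 to 93 counts, while its ligase HERC5 had 959 and 1002, a ratio of 0.24 that was 1.38 relative to the trend. USP18 was ranked only through its olaparib counts.

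Of 15 ranked sensors and signalling members, 3 were higher and 2 lower, beside 7.82% and 21.2% of all ranked genes. Their median was 0.38. Relative to the trend 4 were higher and 0 lower, beside 5.22% and 5.30% of all genes, with a median of 0.54. DHX58, the RNA helicase LGP2, went from 89 to 452 counts (2.51, 2.20 to 2.87), and IRF1, a transcription factor of the pathway, from 296 to 664 (1.34, 1.15 to 1.55). EIF2AK2, the RNA-activated kinase PKR, went the other way, from 514 to 184 counts (-1.30, -1.55 to -1.06). EIF2AK2 lay at -0.26 relative to the trend. IFIH1, the RNA sensor MDA5, went from 306 to 441 counts, a ratio of 0.71 that was 1.94 relative to the trend.

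Ligands and upstream sensors had few counts or ratios in both directions. IFNL1, an interferon of the lambda type, had 5 and 37 counts, under the mean of 50 (2.83, 1.72 to 4.77), and IFNB1 was not analysed here. Of 7 ranked receptors and kinases, 0 were higher and 3 lower, beside 7.82% and 21.2% of all ranked genes, with a median of -0.62. With the trend removed, 0 were higher and 1 was lower, beside 5.22% and 5.30% of all genes, and the median was -0.10. IFNAR1, a chain of the type I interferon receptor, went from 395 to 126 counts (-1.46, -1.77 to -1.17), and JAK2 from 108 to 21 (-2.13, -2.93 to -1.50). IFNAR1 and JAK2 lay at -1.08 and -0.99 relative to the trend. JAK2 was ranked only through its DMSO counts. Of 12 ranked genes of cytosolic nucleic acid sensing, 1 was higher and 2 lower, with a median of 0.16, and relative to the trend 0 were higher and 1 lower, with a median of -0.0064. CGAS, the cytosolic DNA sensor, had 708 and 630 counts, a ratio of 0.01 (-0.14 to 0.17), and its adaptor STING1 303 and 449 (0.75, 0.54 to 0.96). IFI16, a further DNA sensor, went from 473 to 103 counts (-2.01) and lay at -1.55 relative to the trend.

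Secreted inflammatory genes had a higher median than the interferon list as measured but not relative to the trend. Of 34 ranked members, 18 were higher and 1 lower, beside 7.82% and 21.2% of all ranked genes, with a median ratio of 1.03. Relative to the trend 12 of 32 were higher and 0 lower, beside 5.22% and 5.30% of all genes, with a median of 0.70. Chemokines had a median of 1.95 over 8 members and cytokines one of 1.56 over 8, while 13 NF-kB subunits and feedback genes had 0.67. The 7 chemokines with a stand-in had a median of 2.62 as measured and of 2.09 relative to the trend. For the 7 cytokines with a stand-in these values were 1.33 and 1.76. The 13 NF-kB subunits and feedback genes had 0.29 relative to the trend. CXCL10 and CXCL11, ligands of the T cell receptor CXCR3, went from 65 to 376 counts (2.69, 2.33 to 3.12) and from 8 to 106 (3.74, 2.88 to 5.16). CXCL11 and CCL5 were ranked only through their olaparib counts, and both enter the chemokine median and the 18 higher members. CX3CL1, the membrane-bound fractalkine, went from 507 to 2753 counts (2.62, 2.49 to 2.76).

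Among the cytokines, IL6 went from 648 to 2030 counts (1.83, 1.70 to 1.96) and IL11, a cytokine tied to osteolytic metastasis, from 189 to 648 (1.95, 1.72 to 2.20). CSF1, the macrophage growth factor M-CSF, was abundant in both libraries, with 13761 and 20450 counts (0.75, 0.72 to 0.78). IL1B had 0 counts in DMSO and 28 in olaparib, at least 10.6-fold higher against a floor of 3 counts in the DMSO library. PTGS2, which makes prostaglandins, went from 63 to 221 counts (1.97, 1.58 to 2.42). BIRC3, an inhibitor of apoptosis under NF-kB control, was the lower member, with 904 and 358 counts (-1.15, -1.34 to -0.98).

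The genes of HLA class I presentation had a median of 0.93, with 7 of 18 higher and 1 lower, beside 7.82% and 21.2% of all ranked genes. HLA-B went from 1038 to 2404 counts (1.39, 1.29 to 1.50), B2M, the light chain, from 3827 to 7056 (1.06, 1.01 to 1.12), and PSMB9, an immunoproteasome subunit, from 201 to 596 (1.74, 1.52 to 1.99). ERAP1, which trims peptides, went from 475 to 204 counts (-1.03, -1.28 to -0.80). A check on GC content and length is void for the whole list because 72.2% of its ranked members had a stand-in, under the 80% set as the minimum. The 5 immunoproteasome subunits all had one, and their median went from 1.20 as measured to 0.51 relative to the trend. HLA genes are near-identical copies, and no source used here says how the counting divided their reads.

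**Figure D3:**
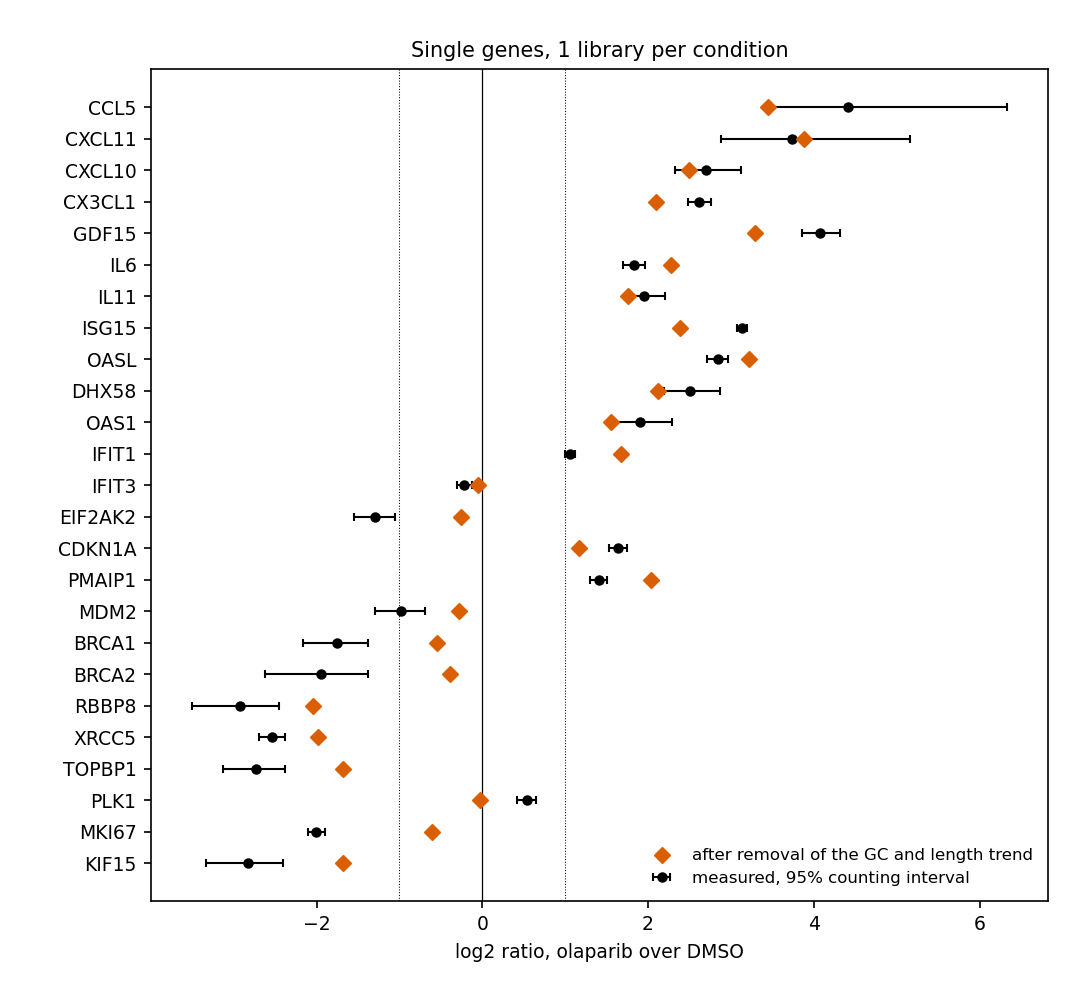
Log2 ratio, olaparib over DMSO (x axis), of selected genes (y axis), as measured with the 95% counting interval (black) and relative to genes of like GC content and length (orange diamonds). OASL lies at 2.84 as measured and 3.22 after removal of the trend, whereas BRCA1 lies at -1.75 and -0.55.

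CDKN1A, which encodes the cell cycle inhibitor p21, had 1007 and 2762 counts (1.64, 1.53 to 1.74) and lay 1.16 above the trend. The death genes PMAIP1 (NOXA) and BBC3 (PUMA) went from 1102 to 2574 counts (1.40, 1.30 to 1.51) and from 176 to 396 (1.35, 1.09 to 1.62), and lay at 2.04 and 0.59 relative to the trend. MDM2, a ubiquitin ligase, went from 309 to 137 counts (-0.99, -1.29 to -0.70), and POLK, a bypass polymerase, from 198 to 44 (-1.97, -2.49 to -1.51). They lay at -0.28 and -0.92 relative to the trend. POLK was ranked only through its DMSO counts.

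Genes of homologous recombination and the Fanconi pathway had a median below that of all ranked genes. Of 32 ranked members, 1 was higher and 16 lower, with a median of -0.98, beside 7.82% and 21.2% of all ranked genes. Relative to the trend the median was -0.26, with 2 higher and 5 lower, beside 5.22% and 5.30% of all genes. The list's trend value had a median of -0.69, beside -0.12 for all ranked genes. By role this median was -0.83 for recombinases and mediators and 0.05 for Fanconi genes.

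The recombinases and mediators had a median of -1.21 over 20 members, and of -0.20 relative to the trend. RBBP8, the end-resection factor CtIP, went from 308 to 35 counts (-2.92, -3.50 to -2.45) and lay at -2.05 relative to the trend. BLM, the helicase mutated in Bloom syndrome, went from 126 to 16 counts (-2.73, -3.65 to -2.04), at -1.63 relative to the trend. BRCA2, a mediator of recombination, went from 125 to 28 counts (-1.94, -2.62 to -1.38), and BRCA1 from 274 to 71 (-1.75, -2.16 to -1.39). After removal of the trend BRCA2 was at -0.39 and BRCA1 at -0.55. RBBP8, BLM and BRCA2 had few counts in olaparib and were ranked only through their DMSO counts. XRCC3, a further recombination factor, had 156 and 287 counts (1.06, 0.77 to 1.35).

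Among 12 ranked Fanconi genes, 0 were higher and 4 lower, beside 7.82% and 21.2% of all ranked genes, with a median of 0.01. Against genes of like composition and length 0 were higher and 1 lower, beside 5.22% and 5.30% of all genes, with a median of -0.32. FANCD2, which the pathway ubiquitinates at crosslinks, went from 316 to 81 counts (-1.77, -2.15 to -1.43), while FANCG of the core complex went from 773 to 1185 (0.80, 0.67 to 0.93). FANCD2 and FANCG lay at -0.67 and 0.56 relative to the trend.

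Checkpoint, end joining and excision genes also had a median below that of all ranked genes. Of 43 ranked members, 0 were higher and 16 lower, beside 7.82% and 21.2% of all ranked genes, with a median of -0.53. With the trend removed, 1 was higher and 4 lower, beside 5.22% and 5.30% of all genes, with a median of -0.16. The 19 ranked checkpoint kinases and adaptors had a median of -0.78 as measured and of -0.13 relative to the trend. TOPBP1, the activator of ATR, went from 533 to 70 counts (-2.73, -3.13 to -2.39) and ATR itself from 311 to 53 (-2.35, -2.82 to -1.95). ATR is given as measured only. XRCC5, the Ku80 subunit that binds DNA ends, went from 2488 to 377 counts (-2.54, -2.70 to -2.38), whereas its partner XRCC6, Ku70, had 3760 and 2723 (-0.28, -0.36 to -0.21). XRCC5 lay at -1.98 and TOPBP1 at -1.68 relative to the trend. PRKDC, the kinase that Ku recruits, went from 3373 to 838 counts (-1.83), but it has a long transcript low in GC and lay at -0.24 after removal of the trend.

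The targets of the drug were lower by less than the size rule. PARP1 had 2130 and 1360 counts (-0.47, -0.57 to -0.37) and PARP2 340 and 177 (-0.76, -1.03 to -0.49); relative to the trend both lay near -0.53 and -0.54. PARG, which removes ADP-ribose chains, went from 298 to 74 counts (-1.82, -2.22 to -1.46) and is given as measured only. Of 14 ranked members of the PARP family, 1 was higher and 4 lower, beside 7.82% and 21.2% of all ranked genes, with a median of -0.51. Once the trend was removed, the median turned to 0.15, with 2 higher and 0 lower, beside 5.22% and 5.30% of all genes. The one higher as measured was PARP10, an interferon-induced mono-ADP-ribosyltransferase, with 240 and 506 counts (1.25, 1.03 to 1.49), which lay at 0.67 relative to the trend.

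Genes of G1/S and DNA replication had a median of -0.20, with 5 of 60 higher and 14 lower, shares near the 7.82% and 21.2% of all ranked genes. Relative to the trend the median was 0.07, with 0 higher and 3 lower, beside 5.22% and 5.30% of all genes. CDT1, the replication licensing factor, went from 603 to 1393 counts (1.39, 1.25 to 1.53) and TK1, the thymidine kinase of S phase, from 1835 to 3483 (1.11, 1.02 to 1.19). Neither CDT1 nor TK1 was past the size rule relative to the trend. CDC7, the kinase that fires origins, went from 368 to 72 counts (-2.16, -2.56 to -1.80), and RRM1, a subunit of ribonucleotide reductase, from 1681 to 447 (-1.73, -1.88 to -1.58). PCNA, the polymerase clamp, had 2198 and 1927 counts, a ratio of -0.01 (-0.10 to 0.08).

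G2/M and mitosis genes had medians that differed by role. Over all 68 ranked members 1 was higher and 29 lower, beside 7.82% and 21.2% of all ranked genes, with a median of -0.47. Relative to the trend the median was -0.09, with 2 of 66 higher and 9 lower, beside 5.22% and 5.30% of all genes. The 21 ranked spindle and cytokinesis genes had a median of -1.51 and 15 of them were lower, while the 23 kinases, cyclins and exit factors had a median of 0.22 and 4 were lower. After removal of the trend these medians were -0.45 and 0.06.

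KIF15, a spindle motor, went from 369 to 45 counts (-2.83, -3.33 to -2.41), and ECT2, which directs cytokinesis, from 2130 to 422 (-2.15, -2.31 to -2.00). They lay at -1.68 and -1.14 relative to the trend. KIF15 was ranked only through its DMSO counts. BUB1B, the checkpoint kinase BUBR1, went from 464 to 91 counts (-2.16, -2.51 to -1.84) and was at -1.86. PLK1, the mitotic polo kinase, in contrast had 1102 and 1408 counts (0.53, 0.42 to 0.65), and AURKB, the kinase of the chromosomal passenger complex, 899 and 1219 (0.62, 0.50 to 0.75). MKI67, whose protein marks cycling cells, went from 4044 to 890 counts (-2.00, -2.11 to -1.90), but its stand-in is long and it lay at -0.60 after removal of the trend, under the size rule.

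**Figure D4:**
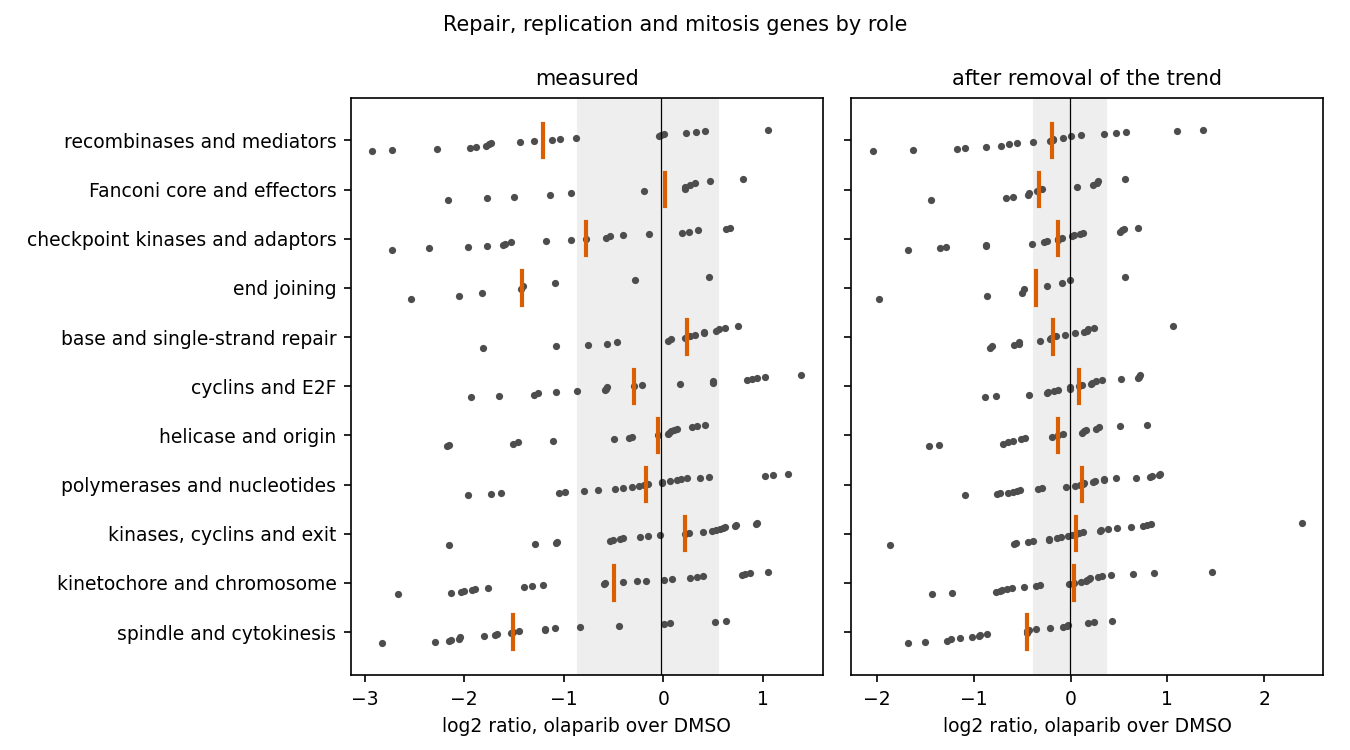
Log2 ratios, olaparib over DMSO (x axis), of ranked repair, replication and mitosis genes by role (y axis), as measured (left) and relative to genes of like GC content and length (right). Points are genes, orange bars their medians, and the grey band and line the quartiles and median of all ranked genes. Spindle and cytokinesis genes have a median of -1.51 as measured and of -0.45 after removal of the trend.

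Short transcripts of the ribosome and the respiratory chain had medians above 0 as measured. Of 76 ranked cytoplasmic ribosomal proteins, 32 were higher and 0 lower, beside 7.82% and 21.2% of all ranked genes, with a median of 0.91. Relative to the trend 4 were higher and 2 lower, beside 5.22% and 5.30% of all genes, with a median of 0.30. RPS29 went from 1921 to 5524 counts (1.70, 1.63 to 1.78), whereas RPS4X went from 2798 to 1513 (-0.71, -0.80 to -0.61). Ribosomal protein genes have many processed copies, whose reads the counting could divide. The respiratory chain had a median of 0.77, with 18 of 72 higher and 2 lower, and of 0.09 relative to the trend, with 6 higher and 2 lower. COX5B of complex IV went from 1089 to 2664 counts (1.47, 1.37 to 1.57), and NDUFS1, a large subunit of complex I, from 1068 to 405 (-1.22, -1.39 to -1.05).

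The 15 ranked mitochondrially encoded transcripts had a median of -0.22, with 0 higher and 1 lower, beside 7.82% and 21.2% of all ranked genes. For the 14 with a stand-in the median was -0.44 relative to the trend. Of these 0 were higher and 2 lower, beside 5.22% and 5.30% of all genes. MT-RNR2, the large mitochondrial ribosomal RNA, went from 44436 to 18250 counts (-1.10, -1.13 to -1.08), and MT-CO1, a subunit of complex IV, from 89840 to 70795 (-0.16, -0.18 to -0.15).

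Heat shock chaperones had a median below that of all ranked genes. Of 15 ranked members 0 were higher and 7 lower, beside 7.82% and 21.2% of all ranked genes, with a median of -0.97. Relative to the trend the median was -0.32, with 0 higher and 3 lower, beside 5.22% and 5.30% of all genes. HSP90AA1, the inducible HSP90, went from 6573 to 1184 counts (-2.29, -2.38 to -2.20) and HSPA8, the constitutive HSC70, from 12764 to 5409 (-1.06, -1.10 to -1.01). They lay at -1.49 and -1.12 relative to the trend. The pseudogene HSP90AA2P, with 105 and 7 counts, resembles HSP90AA1 in sequence, so its value is uncertain. This pseudogene was ranked only through its DMSO counts.

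Splicing factors had a median of -0.77, with 0 of 32 higher and 7 lower, the latter a share near the 21.2% of all ranked genes. Against genes of like composition and length the median was -0.25, with 0 higher and 1 lower, beside 5.22% and 5.30% of all genes. MYC targets and ribosome biogenesis genes had 0 of 32 higher and 10 lower (median -0.48), and relative to the trend 0 were higher and 4 lower (median -0.15). NOP58, a core protein of small nucleolar particles, went from 357 to 65 counts (-2.26, -2.68 to -1.89).

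Immediate early and stress genes had medians above 0 before and after removal of the trend. Of 18 ranked immediate early and AP-1 genes, 7 were higher and 0 lower, beside 7.82% and 21.2% of all ranked genes, with a median of 0.71. With the trend removed, 2 were higher and 1 lower, beside 5.22% and 5.30% of all genes, with a median of 0.49. EGR1 went from 55 to 145 counts (1.56, 1.12 to 2.06) and JUNB, an AP-1 subunit, from 395 to 1028 (1.56, 1.39 to 1.73). In the integrated stress response list, 6 of 18 were higher and 2 lower, with a median of 0.36, and relative to the trend 3 were higher and 1 lower, with a median of 0.20. CEBPB, a transcription factor of inflammation and stress, went from 947 to 3418 counts (2.03, 1.93 to 2.14), whereas ATF4, the list's central factor, had 2357 and 2416 (0.22).

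Hypoxia, glycolysis and angiogenesis genes had 6 of 35 higher and 2 lower, beside 7.82% and 21.2% of all ranked genes, with a median of 0.36. Once the trend was removed, 4 were higher and 0 lower, beside 5.22% and 5.30% of all genes, with a median of 0.26. VEGFA, the endothelial growth factor, went from 1899 to 4824 counts (1.53) and ANGPTL4 from 49 to 222 (2.34, 1.91 to 2.84). HIF1A, the oxygen-regulated factor that acts on both, went from 2199 to 565 counts (-1.78, -1.92 to -1.65) and lay at -0.64 relative to the trend. ANGPTL4 was ranked only through its olaparib counts.

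Glutamine and cystine genes, the theme of the series' title, had 0 of 23 higher and 7 lower, beside 7.82% and 21.2% of all ranked genes, with a median of -0.21. Relative to the trend 0 were higher and 1 lower, beside 5.22% and 5.30% of all genes, with a median of -0.02. GLUL, which makes glutamine, had 960 and 1055 counts (0.32, 0.19 to 0.45), and SLC1A5, a glutamine importer, 1706 and 2160 (0.52, 0.43 to 0.61). SLC7A11, the cystine importer, went from 524 to 159 counts (-1.53, -1.80 to -1.28). It has a long stand-in transcript low in GC and lay at -0.0071 relative to the trend. SLC38A1, a further glutamine transporter, went from 2423 to 431 counts (-2.31, -2.46 to -2.16) and lay at -1.28.

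**Figure D5:**
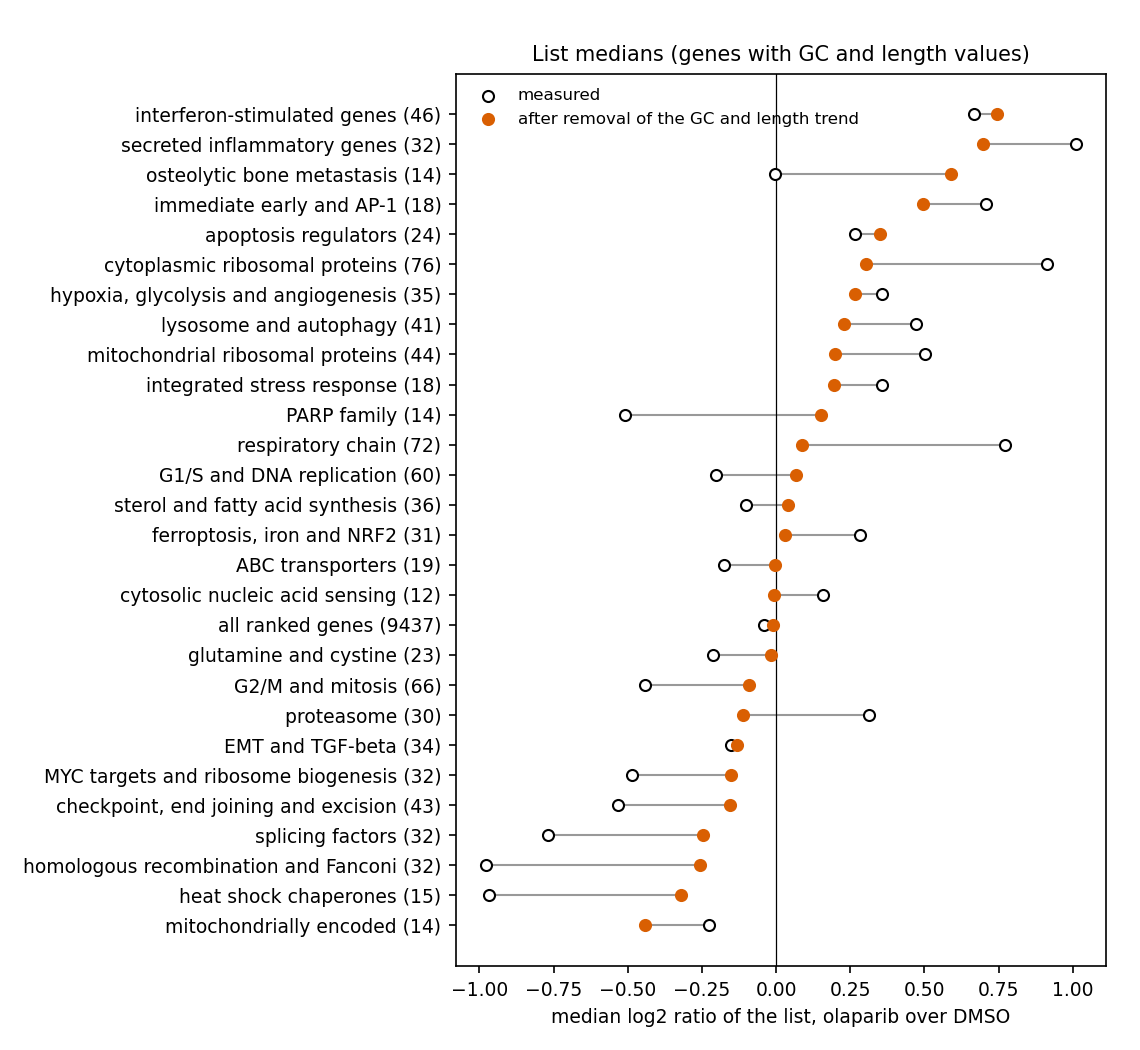
Median log2 ratio, olaparib over DMSO (x axis), of gene lists (y axis, with the number of members that have GC and length values), as measured (open circles) and after removal of the trend (orange). Interferon-stimulated genes lie at 0.67 and 0.75, while the respiratory chain goes from 0.77 to 0.09 and homologous recombination from -0.98 to -0.26.

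Genes of EMT and TGF-beta signalling had a median of -0.15, with 1 of 34 higher and 10 lower, beside 7.82% and 21.2% of all ranked genes. After removal of the trend 1 was higher and 0 lower, beside 5.22% and 5.30% of all genes, with a median of -0.13. As measured, 12 members had a ratio above 0 and 22 one below 0, and COL6A2 was the higher member, at 1.27. ZEB1, a repressor of epithelial genes, went from 434 to 99 counts (-1.94, -2.28 to -1.63) and CAV1, caveolin, from 4809 to 1771 (-1.26, -1.34 to -1.18), at -0.81 and -0.62 relative to the trend. In the apoptosis list 3 of 25 were higher and 4 lower, with a median of 0.25, and relative to the trend 4 of 24 were higher and 1 lower, with a median of 0.35. BCL2 had 145 and 53 counts (-1.26, -1.75 to -0.81) and BIRC2, an inhibitor of apoptosis, 830 and 135 (-2.43, -2.71 to -2.17). Only BIRC2 of this pair was past the size rule relative to the trend, at -1.61.

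In CPM the greatest losses were those of EEF1A1, the elongation factor, from 7737 to 2607 CPM, MT-RNR2 from 5821 to 2711, and AHNAK, which has a very long transcript, from 2016 to 402. EEF1A1 has many processed copies and its value is uncertain. The greatest gains were those of IGFBP4, a binding protein of insulin-like growth factors, from 8926 to 12099 CPM, and ISG15, from 375.8 to 3302. The 12 lowest genes by interval held DNTTIP2, with 611 and 67 counts (-2.99, -3.39 to -2.64), STK38L with 239 and 23, USPL1 with 109 and 10, and U2SURP with 799 and 105, beside RBBP8, TOPBP1, KIF15 and XRCC5 given above. DNTTIP2 and USPL1 lay at -2.47 and -2.40 relative to the trend. STK38L, USPL1, RBBP8 and KIF15 were ranked only through their DMSO counts.

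In 2435 genes the DMSO library had 0 counts and the olaparib library had some, and in 2680 the reverse. KLHDC7B had 0 and 29 counts, at least 11.0-fold higher against a floor of 3 counts, and SOST, the bone-formation inhibitor sclerostin, 0 and 13, at least 4.91-fold higher. ARHGAP28 had 21 and 0 counts, at least 6.17-fold lower.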

How the data were processed

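RNA-seq counts of 2 human libraries were used; the mouse libraries of the series were not used here. The deposited human table holds whole numbers for 25611 symbols, which were treated as counts. The deposited table is named as normalized, but its whole numbers from 1 to 60 are evenly filled (chi-square per degree of freedom 0.87 and 1.44), and lowering the counts by 3% raised this to 2.73 and 2.94. Only changes of scale by 3% were tried, so other scalings are not excluded. The counting intervals hold only if the values are counts. STAR 2.6.0c, featureCounts 1.6.2 and the builds hg19 and mm10 are listed per the submitters' processing notes, which give no roles. No source used here says whether the counting used strand, so overlapping or antisense genes may share reads.

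Ratios used TMM factors (edgeR 4.0.16, R 4.3.3) from genes with a mean count of at least 10, and a pseudocount of 1; intervals are exact conditional binomial (scipy 1.17.1, Python 3.11.15). The GC and length trend was a tensor smooth (mgcv 1.9.3). DESeq2 1.42.0 gave an alternative scaling. GC content and length came from the longest protein-coding mouse transcript of GENCODE (GRCm38), as no human annotation was used here. The steps were tested on simulated data.

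Several choices were made after seeing values. TMM on all genes was computed first and replaced, because the filtered version gave ratios like those of an earlier account of these data. The stand-in transcript was the longest one, then the APPRIS principal one, then again the longest, each change following a look at single genes with odd values. Symbol matching was widened in 3 steps to raise coverage, and some synonym matches are doubtful (MMP1 was given a different mouse collagenase gene). Each version not kept is given as an alternative in the closing section.

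Genes were named by rule: the 12 highest and 12 lowest by the interval bound nearest 0, up to 4 at each end of a list, the 12 largest gains and losses in CPM, 8 genes at 0 in 1 library, and the markers and drug-related genes; some genes and a list are not reported here. Further list members were chosen after their values were seen. The members and lists were chosen with earlier results of these data known. No test was made, and promoter motifs, which had been planned, were not analysed here.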

Additional observations from a re-analysis of the deposited data

How the results depend on the processing

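The counts of genes past the size rule, 804 higher and 2176 lower, kept within 1.5 times under equal totals, DESeq2 size factors, the upper quartile and a pseudocount of 5. They were 448 higher on the deposited scale, 1371 higher with a mean of at least 10, 4733 and 4506 with no filter, 349 and 1405 when the whole interval had to lie beyond 1, and 493 and 500 relative to the trend. On the deposited scale the median was 0.85 for secreted inflammatory genes, -0.66 for G2/M and mitosis, 0.73 for ribosomal proteins and 0.59 for the respiratory chain. Relative to the trend it was 0.70, -0.091, 0.30 and 0.087, and -0.26 for homologous recombination and Fanconi. The sign turned relative to the trend for G1/S and replication (0.068), proteasome (-0.11), keratins (-0.13), the PARP family (0.15), ERAP1 (0.24), sterol and fatty acid synthesis (0.040) and cytosolic nucleic acid sensing (-0.0064). It turned for nucleic acid sensing on the deposited scale (-0.022) and with no filter (-0.42), for interferon ligands and receptors with no filter (0.10), and for the osteolytic list on the deposited scale (-0.0010), with a mean of at least 10 (-0.0044) and with no filter (-0.19). The cause was not tested.

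Alternatives added after seeing the data were the versions that had been tried and not kept. TMM on all genes gave 683 higher and 2311 lower. Relative to the trend, principal transcripts gave 485 higher and 527 lower and matching by the same symbol only 471 and 471, and the trend took 55.0% and 55.7% of the variance. Of the 6 main lists, homologous recombination and Fanconi moved by over 1.5 times, from -0.26 to -0.12 with principal transcripts. Single genes moved by more than their counting error in 18 of 209 cases, as AHNAK did, from -0.66 to -3.16 with principal transcripts. No paired analysis was possible because each condition had 1 library and no result comes from a test. A count of 0 limits a gene's level to 0.401 CPM in DMSO and 0.436 in olaparib.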
